A study of Mus musculus with 10 samples.

Results

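The Ms4a genes encode small proteins that cross the membrane 4 times, and 7 of them were examined here in the hippocampus of female tauopathy mice: Ms4a4a, Ms4a4b, Ms4a4c, Ms4a6b, Ms4a6c, Ms4a6d and Ms4a7. They were chosen by gene symbol, with earlier results of these data known, as mouse relatives of the genes at the human MS4A locus. Ms4a4d, which lies among them, was not a member and is given with the rest of the cluster. All 7 had a row in the table of 56884 genes, and 4 of them (Ms4a6b, Ms4a6c, Ms4a6d and Ms4a7) had enough counts to be among the 17622 genes tested. The mice were 10 ovary-intact P301S females, 5 of which (void-treated females) carried an empty SILASTIC capsule under the skin and 5 of which (DHT-treated females) carried the same capsule packed over 10 mm with dihydrotestosterone (DHT), an androgen that cannot be converted into estrogen. P301S mice express human Tau with the P301S mutation from the mouse Prnp promoter, on a mixed B6;C3 background, so all 10 mice carried the transgene and the comparison holds no mouse without Tau pathology. Capsules were implanted at 6 months of age and the tissue was taken after 12 weeks, at 9 to 9.5 months, with 1 library per mouse. In this bulk tissue, more cells of a type and more RNA per cell cannot be told apart.

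At the human locus, variants near MS4A4A and MS4A6A are associated with the risk of Alzheimer disease and with the level of soluble TREM2 in cerebrospinal fluid. TREM2 is the lipid-sensing receptor of microglia, and the genes of this locus are expressed mainly in cells of the macrophage lineage. Mice carry several Ms4a4 and Ms4a6 genes side by side on chromosome 19, and members of the family take part in receptor signalling and trafficking in macrophages, T cells and other leukocytes.

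Each void-treated female gave 27188854 to 47113661 counts in total and each DHT-treated female 33523527 to 45947784. The libraries of the void-treated females held positions 4 to 11 in the order of the labels and those of the DHT-treated females 18 to 23, so this order and the treatment cannot be told apart. Nothing in the labels gives litters or cages. Genes of hippocampal neurons were present in both groups. The summed level of 6 of them (Prox1, Neurod6, Wfs1, Zbtb20, Camk2a and Slc17a7) was 4929 to 5934 CPM (TMM-normalized counts on a scale common to all libraries) with void and 4455 to 6247 with DHT, and 0 of the 6 passed the test. Camk2a carried the largest part of this sum, with a mean of 3143 CPM with void and 3103 with DHT. No other brain region was compared, so the sum does not check the dissection. RNA of the choroid plexus, the epithelium beside the hippocampus that makes cerebrospinal fluid, separated the groups without overlap. The summed level of its 12 markers was 361 to 3299 CPM with void and 3966 to 5863 with DHT, and 5 of the 12 rose (edgeR, adjusted p under 0.05 and log2 fold change above 1), among them Tmem72 and Clic6 with log2 fold changes of 2.69 and 2.16. Its part in the results below was not tested beyond a fit with that score as a covariate, given beside Ms4a6c.

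Ms4a6b and Ms4a6c are paralogs on the same strand with the Ms4a-like gene Gm8369 between them, and they differed most clearly in the data. Their sequence just before the transcription start is shown for that reason. These are the 250 bases before each start in RefSeq on GRCm38.p6, at chr19:11518309-11518558 for Ms4a6b and chr19:11469118-11469367 for Ms4a6c, both on the plus strand and written 5′ to 3′, with capitals for the longest run of bases that both share.
Ms4a6b: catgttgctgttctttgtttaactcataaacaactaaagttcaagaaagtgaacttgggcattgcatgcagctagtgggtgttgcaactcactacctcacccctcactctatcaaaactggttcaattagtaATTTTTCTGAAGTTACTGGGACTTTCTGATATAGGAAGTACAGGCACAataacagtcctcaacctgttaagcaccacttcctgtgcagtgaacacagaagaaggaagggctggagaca
Ms4a6c: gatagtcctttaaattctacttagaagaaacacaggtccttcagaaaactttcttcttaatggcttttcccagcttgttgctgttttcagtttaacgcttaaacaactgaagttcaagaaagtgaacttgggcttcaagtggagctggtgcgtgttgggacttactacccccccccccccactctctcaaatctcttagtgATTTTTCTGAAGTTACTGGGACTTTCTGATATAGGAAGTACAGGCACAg

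The shared run was 48 bases long. It lay at positions -118 to -71 from the start of Ms4a6b and at -49 to -2 from the start of Ms4a6c, and of 32851 windows of this length in the table only these 2 held it. Between the windows of Ms4a4b and Ms4a4c the longest shared run was 20 bases, and between the other pairs of members with an entry it was 7 to 9 bases. Ms4a6d has no entry in the RefSeq table. Each window of the other 6 members was searched on both strands for GAGGAAGT, a core that binds PU.1, the master regulator of macrophages, for GAAA followed after any 2 bases by GAAA, the core of the interferon-stimulated response element, and for AGGTCA, a nuclear receptor half-site. None of the 3 was found in any of these windows, where 2.44%, 2.98% and 14.0% of all windows held them. This says only that these letters are not in these windows.

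Ms4a6c (ENSMUSG00000079419), a gene of monocytes and macrophages, was the one member that rose with libraries scaled on all genes. In void-treated females it had 22, 22, 12, 10 and 23 counts (replicates 4, 5, 9, 10 and 11), or 0.465, 0.703, 0.372, 0.369 and 0.689 CPM. In DHT-treated females it had 56, 35, 106, 39 and 30 counts (replicates 1, 2, 3, 5 and 6), or 1.53, 0.864, 2.22, 1.17 and 0.893 CPM. Every DHT-treated mouse lay above every void-treated mouse, with DHT replicate 3 the highest. The mean was 0.520 ± 0.166 CPM in void-treated and 1.33 ± 0.563 CPM in DHT-treated mice (SD, n = 5 per group). Its log2 fold change was 1.36 (standard error, SE, 0.31; adjusted p = 0.0247 by edgeR, over all genes tested). Thus 1 of the 4 tested members was called higher, where 2.17% of all genes tested were, and 0 were called lower, where 0.0227% were. All 4 had a positive log2 fold change, as did 52.4% of all genes tested, and 3 of the 4 had an unadjusted p under 0.05 in that direction, as did 13.1%. Non-overlap of this kind, seen in 1 of the 4, was met by 5.39% of all genes tested. The call rested on few counts, and it was lost when void replicate 4, 10 or 11 or DHT replicate 1 or 3 was left out, with adjusted p values of 0.0709, 0.0667, 0.0533, 0.0756 and 0.0609. Over all 10 such fits its log2 fold change lay between 1.07 and 1.49. The share of all genes called in those fits was not computed. With the choroid plexus score of each mouse as a covariate, the log2 fold change was 1.94 (SE 0.54, edgeR unadjusted p = 0.00392, adjusted p = 0.571), and 0 members were called. The share of all genes called in that fit was not computed. The choroid plexus sum separated the groups without overlap, so this fit could not clearly divide its part from that of treatment.

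Ms4a6d (ENSMUSG00000024679), a macrophage gene of the same subfamily, lay higher on average with DHT and did not pass the test. Its levels were 1.27, 0.959, 0.589, 0.738 and 0.779 CPM with void and 2.32, 1.26, 1.93, 1.44 and 1.07 CPM with DHT, in the same order of replicates. Of the 5 DHT-treated mice, 3 lay above the highest void-treated mouse, so the groups overlapped, with void replicate 4 the highest of its group. The log2 fold change was 0.87 (SE 0.26, edgeR adjusted p = 0.0796). DESeq2 gave an adjusted p of 0.0425 at a log2 fold change of 0.85, which is under the limit of 1 for a call. With the choroid plexus covariate the log2 fold change was 0.77 (SE 0.47, edgeR adjusted p = 0.818).

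Ms4a6b (ENSMUSG00000024677), known from T cells and macrophages, differed between the groups by less than their spread. Its levels were 0.951, 1.60, 0.713, 1.07 and 1.44 CPM with void and 1.56, 1.16, 2.01, 1.08 and 0.983 CPM with DHT. A single DHT-treated mouse, replicate 3, lay above the highest void-treated mouse. Its mean was 1.15 ± 0.360 CPM in void-treated and 1.36 ± 0.426 CPM in DHT-treated mice (SD, n = 5 per group). The log2 fold change was 0.25 (SE 0.26, edgeR adjusted p = 0.715), and without single mice the fold change ranged from 0.03 to 0.39. With the choroid plexus covariate it was 0.98 (SE 0.39, edgeR adjusted p = 0.662).

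Ms4a7 (ENSMUSG00000024672), a gene that marks macrophages of the brain borders more than resting microglia, had few counts, 4 to 16 per mouse with void and 12 to 51 with DHT. In void-treated females its levels were 0.317, 0.511, 0.124, 0.184 and 0.270 CPM, and in DHT-treated females 0.492, 0.296, 1.07, 0.748 and 0.476 CPM. Only replicates 3 and 5 of the DHT-treated mice lay above the highest void-treated mouse. The log2 fold change was 1.12 (SE 0.40, edgeR adjusted p = 0.152). Over the 10 fits that each omit a mouse it ranged from 0.78 to 1.42, and the adjusted p stayed between 0.0741 and 0.327. With the choroid plexus covariate it was 1.98 (SE 0.71, edgeR adjusted p = 0.601).

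The 3 members of the Ms4a4 subfamily, Ms4a4a, Ms4a4b and Ms4a4c, were near the limit of detection and were not among the genes tested. Ms4a4a (ENSMUSG00000101389), a macrophage gene whose protein is known to associate with dectin-1, had 7, 5, 0, 1 and 4 counts with void and 7, 5, 12, 9 and 4 with DHT. Ms4a4b (ENSMUSG00000056290), best known from T cells, had 3, 6, 0, 3 and 5 counts with void and 17, 7, 19, 3 and 6 with DHT. Ms4a4c (ENSMUSG00000024675), their close relative, had 0, 4, 4, 5 and 2 counts with void and 12, 12, 24, 4 and 10 with DHT. In each of the 3 the groups overlapped, and 3, 2 and 4 of the 5 DHT-treated mice lay above the highest void-treated mouse. A count of 0 allows up to 3 counts, which is 0.0931 CPM in void replicate 9, where Ms4a4a and Ms4a4b were at 0, and 0.0634 CPM in void replicate 4, where Ms4a4c was at 0. These limits cover counting error only. Without adjustment, two-sided exact permutation tests on log2 CPM gave p = 0.0794 for Ms4a4a, 0.103 for Ms4a4b and 0.0317 for Ms4a4c, where 5 mice against 5 allow no p under 0.00794. Fitted by DESeq2, which kept them, their log2 fold changes were 0.96, 1.35 and 1.71 with adjusted p values of 0.50, 0.282 and 0.0802, and none was called, so that DESeq2 called 1 of the 7 members, where it called 2.23% of its genes higher. Without the expression filter edgeR also called 1 of the 7, where 1.34% of genes were called higher.

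**Figure D1:**
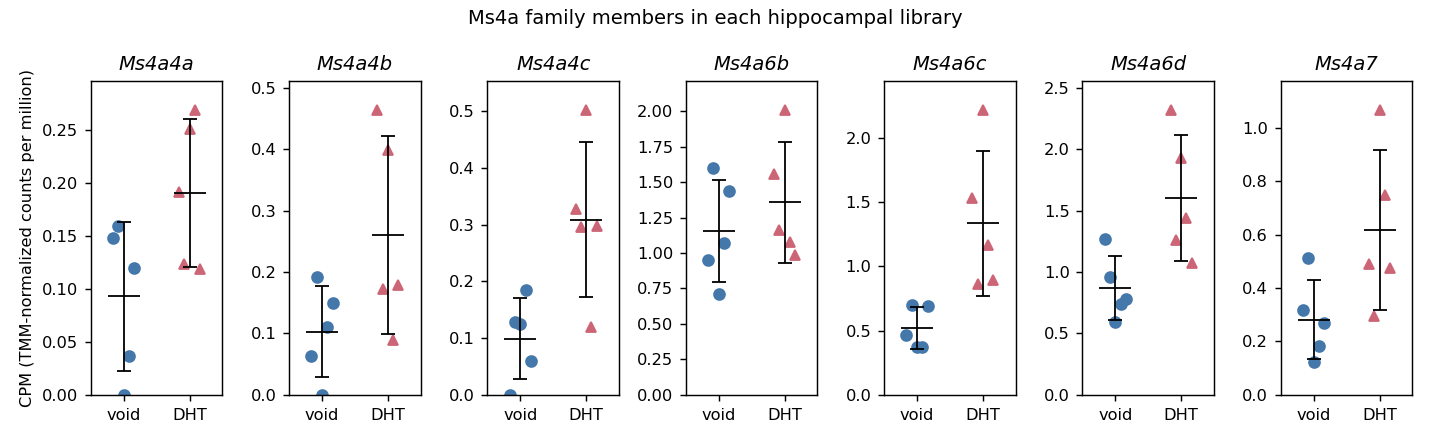
Level of each of the 7 members in CPM (y axis, linear, from 0, with its own range in each panel) in the 5 void-treated (circles) and 5 DHT-treated mice (triangles), with the mean and SD in black. Ms4a6c is the one member whose groups do not overlap, from at most 0.703 CPM with void to at least 0.864 CPM with DHT.

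Summed, the 7 members gave 1.92 to 4.25 CPM with void and 4.02 to 8.38 CPM with DHT. The 3 Ms4a6 genes made up most of this, with a mean sum in void-treated mice of 2.54 ± 0.623 CPM (SD, n = 5) and in DHT-treated mice of 4.30 ± 1.41 (SD, n = 5). For the 3 Ms4a4 members the mean sum was 0.295 ± 0.135 CPM in void-treated and 0.760 ± 0.291 CPM in DHT-treated mice (SD, n = 5 per group). DHT replicate 3 had the highest sum of members of any mouse and void replicate 9 the lowest.

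Levels of different genes can be compared only per length, here as CPM per 1000 bases of the exons that GENCODE M21 gives each gene. On this scale Ms4a6d was the highest member in both groups, at 0.50 ± 0.15 in void-treated and 0.924 ± 0.295 in DHT-treated mice (SD, n = 5 per group). With void, Ms4a6b at 0.257 ± 0.0804 and Ms4a6c at 0.254 ± 0.0808 followed and could not be separated beyond their spread. With DHT, Ms4a6c stood at 0.651 ± 0.275 and Ms4a6b at 0.303 ± 0.0949, and Ms4a6c and Ms4a6d were not separated beyond their spread. Next came Ms4a4a at 0.111 ± 0.0846 with void and 0.228 ± 0.0836 with DHT, followed with void by Ms4a7 at 0.0632 ± 0.0334 and Ms4a4c at 0.0567 ± 0.0405, and these 3 overlapped in their spread. With DHT, Ms4a4c was at 0.176 ± 0.0777 and Ms4a7 at 0.138 ± 0.0673, again within the spread of Ms4a4a. Ms4a4b was the lowest in both groups, at 0.0117 ± 0.00850 with void and 0.0297 ± 0.0184 with DHT, but its exons sum to 8780 bases over all its transcripts, and a shorter transcript in use would give a higher level.

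The paralogs Ms4a6b and Ms4a6c therefore changed their proportion. Void-treated mice had 0.85 to 1.41 more log2 units of Ms4a6b than of Ms4a6c, with a mean log2 ratio of 1.07 ± 0.22 (SD, n = 5). DHT-treated mice had a ratio of -0.14 to 0.40, with a mean of 0.06 ± 0.22 (SD, n = 5), which is close to equal counts of both, with no correction for length. The ratio fell by 1.01 log2 units between the groups, which did not overlap (p = 0.00794 by a two-sided exact permutation test, the smallest that 5 mice against 5 allow). Over the 6 pairs of tested members compared in this way, the Benjamini-Hochberg adjusted p was 0.0476. Because the ratio is taken within a library, library scaling enters it only through the prior count, and without any 1 mouse the change was 0.92 to 1.09 log2 units. It uses the same counts as the test of Ms4a6c, so it is a second view of them and not a second experiment. The ratio was not a planned test. Of windows of 100 bases in the transcripts of Ms4a6b 0%, and of Ms4a6c 0.513%, were found in a transcript of another gene, and none was shared between the pair.

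Among the other 5 pairs, the log2 ratio of Ms4a6b to Ms4a7 moved from 1.90 ± 0.38 (SD, n = 5) to 1.14 ± 0.53 (SD, n = 5), and that of Ms4a6b to Ms4a6d from 0.38 ± 0.49 (SD, n = 5) to -0.23 ± 0.25 (SD, n = 5). Both had p = 0.0476 in the two-sided exact permutation test and 0.0952 after adjustment over the 6 pairs. Ratios among Ms4a6c, Ms4a6d and Ms4a7 differed by -0.16 to 0.40 log2 units with p between 0.167 and 0.635 (exact permutation test). Thus a difference in response was seen, in a comparison that was not planned, for Ms4a6c against Ms4a6b alone. For the other pairs the design left it unsettled. As a share of the counts of all 7 members, Ms4a6b went from 29.6 to 41.0% with void to 22 to 27.8% with DHT, and Ms4a6c from 13.7 to 19.7% with void to 20.7 to 26.5% with DHT.

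**Figure D2:**
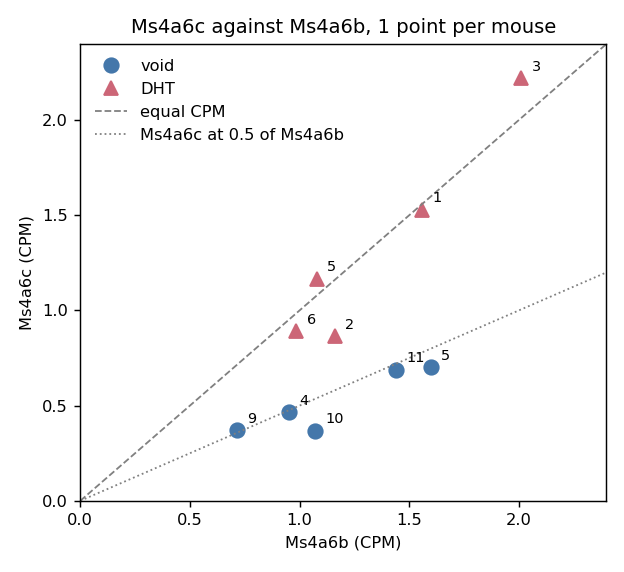
Ms4a6c level (y axis, CPM) against Ms4a6b level (x axis, CPM) in each void-treated (circles) and DHT-treated mouse (triangles), numbered by replicate, with lines for equal CPM and for Ms4a6c at 0.5 of Ms4a6b. Void-treated mice lie near the lower line and DHT-treated mice near the line of equal CPM, and replicate 3 of the DHT-treated mice has the highest level of both genes.

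Genes of microglia as a whole were also higher with DHT, so the members were set against them. A reference list of 13 genes of microglial identity, such as the receptors Cx3cr1 and P2ry12, had a summed level of 507 to 579 CPM with void and 689 to 961 with DHT. Its median log2 fold change was 0.38, and 0 of the 13 were called, though 4 had an adjusted p under 0.05. A list of 12 general myeloid genes had a median of 0.92, and 5 of the 12 were called, among them the complement gene C1qa, the phosphatase gene Ptprc and the interferon regulatory factor Irf8, with log2 fold changes of 1.3, 1.25 and 1.18. Its summed level was 153 to 218 CPM with void and 262 to 495 with DHT. When each library was scaled on the microglia list in place of all genes, the median over all genes tested shifted from 0.01 to -0.49, and log2 fold changes relative to these genes were -0.26 for Ms4a6b, 0.86 for Ms4a6c, 0.34 for Ms4a6d and 0.63 for Ms4a7. On this scale 0 of the 4 were called, where 1.3% of all genes tested were called higher. An unadjusted p under 0.05 was found for 1 of the 4, where 2.93% of all genes tested had one for an increase. The adjusted p for Ms4a6c was 0.0191 at a fold change under the limit, and for the other 3 it was 0.153 to 0.381 (edgeR). With no fold limit 1 of the 4, Ms4a6c, was called, where 2.66% of all genes tested were higher. Without DHT replicate 3 the value for Ms4a6c was 0.53 with an adjusted p of 0.0869 (edgeR). Ms4a4c had enough counts for the test only when void replicate 5, 9, 10 or 11 or DHT replicate 5 was left out. Its log2 fold change was then 1.17 to 1.58 on the microglia scale and 1.63 to 2.10 with scaling on all genes. On the microglia scale it met the limits of a call without void replicate 5, 9 or 10 or DHT replicate 5. With scaling on all genes it never did. Ms4a4c entered these fits only through its DHT-treated mice, as no void-treated mouse was above 0.184 CPM. These calls therefore lend no support to a rise, and the share of all genes called in the same fits was not computed. An exact permutation test on the log2 ratio of each member to the summed list gave p = 0.0476 for Ms4a6c and 0.206 to 0.294 for the others, unadjusted.

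Scaled on the myeloid list instead, which moved the median of all genes to -1.0, Ms4a6b was at -0.80, Ms4a6c at 0.29, Ms4a6d at -0.22 and Ms4a7 at 0.06. The adjusted p for Ms4a6b was 0.00807 and those of the other 3 were 0.380 to 0.883 (edgeR). Ms4a6c therefore lay above the microglial identity genes and was not separated from the general myeloid genes. Ms4a6b lay below the general myeloid genes, as did the median of all genes, which was lower still at -1.0. The share of all genes that were lower on this scale was not computed.

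**Figure D3:**
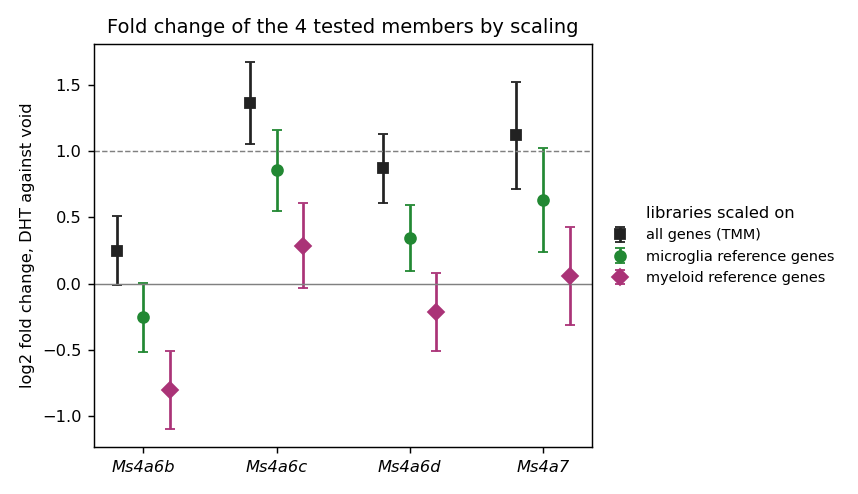
Log2 fold change of DHT against void (y axis; bars are 1 standard error) for the 4 tested members with libraries scaled on all genes, on the microglia list or on the myeloid list, and a dashed line at the limit of 1. Ms4a6c and Ms4a7 are above that line only with scaling on all genes (1.36 and 1.12). Ms4a6b is below 0 with both lists (-0.26 and -0.80), as is the median of all genes tested (-0.49 and -1.0, not drawn).

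Genes that work with the members, or stand beside them as risk genes, were taken from fixed lists. Of 10 genes of the TREM2 pathway, 3 rose and 0 fell, with a median log2 fold change of 0.51 against 0.01 for all genes tested. These were Clec7a, which encodes dectin-1, Trem2 itself and Tyrobp, the adaptor of TREM2, with log2 fold changes of 3.36, 1.32 and 1.31 and adjusted p values of 0.00990, 0.00761 and 0.00670 (edgeR). A list of 30 genes at other Alzheimer risk loci shares Trem2, Plcg2, Inpp5d, Adam10, Adam17 and Apoe with the TREM2 list. Of these 30, 3 rose and 0 fell, with a median of 0.34. They were Ace, which encodes a peptidase and is also a choroid plexus gene, Trem2 again, and Ctsh, a lysosomal protease, with log2 fold changes of 2.04, 1.32 and 1.04. Of 12 interferon-response genes 9 rose, with a median log2 fold change of 2.02, led by Ifi27l2a, Usp18, Irf7 and Isg15 at 2.56, 2.42, 2.18 and 2.15. Their summed level was 30.1 to 49.5 CPM with void and 63.0 to 203 with DHT, and DHT replicate 3, the mouse with the highest sum of members, had the highest value.

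Other cells that express Ms4a genes were followed through their markers. The 9 markers of border macrophages had a summed level of 15.3 to 33.9 CPM with void and 19.6 to 30.8 CPM with DHT, so the groups overlapped, and 0 of the 8 tested were called. Monocyte markers (0 of 3 tested called) summed to 28.5 to 31.9 CPM with void and 29.0 to 40.1 with DHT. T and NK cell markers (0 of 4 tested called) summed to 2.66 to 4.25 CPM with void and 3.68 to 5.32 with DHT. Lck and Trac carried most of that sum. Of the T and NK cell genes with too few counts for the test, Cd8a averaged 0.0896 CPM with void and 0.313 with DHT, Cd3g 0.0431 and 0.151, Cd3e 0.0569 and 0.146, and Nkg7 0.0253 and 0.114. Trbc2, at 0.292 and 0.236, and Cd2, at 0.0438 and 0.0566, did not share this difference. B cell markers (0 of 4 tested called) summed to 12.0 to 17.2 CPM with void and 16.1 to 44.0 with DHT. Neutrophil markers, with 0 of 6 tested, stayed at or below 1.07 CPM in sum in every mouse. Mast cell markers reached 1.73 to 2.85 CPM with void and 3.26 to 4.4 with DHT, nearly all of it Hdc, which neurons also express. The 4 blood genes were at 0.599 to 2.46 CPM with void and 0.691 to 2.16 with DHT. The part of these cells in the levels of the members was not tested.

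Within the groups, the members varied together. Over the 10 mice, with each value taken as its deviation from the mean of its group, the correlation was 0.89 between Ms4a6b and Ms4a6c, 0.79 between Ms4a6c and Ms4a7, and 0.57 to 0.69 for the other 4 pairs. With the summed border macrophage markers the 4 tested members correlated at 0.70 to 0.88, and with the summed microglia list at -0.07 to 0.50. Correlations with the interferon-response sum were 0.30 to 0.73, and with the choroid plexus sum -0.68 to -0.06. With the T and NK cell sum they were 0.24 to 0.71, the highest for Ms4a6c. The monocyte sum gave 0.08 to 0.57 and the general myeloid list 0.13 to 0.22. The values of a mouse share a library and its composition, and the correlations are given as a description. Within groups, mice with more border macrophage RNA thus tended to have more of these transcripts, while the border macrophage sum itself overlapped between the groups.

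**Figure D4:**
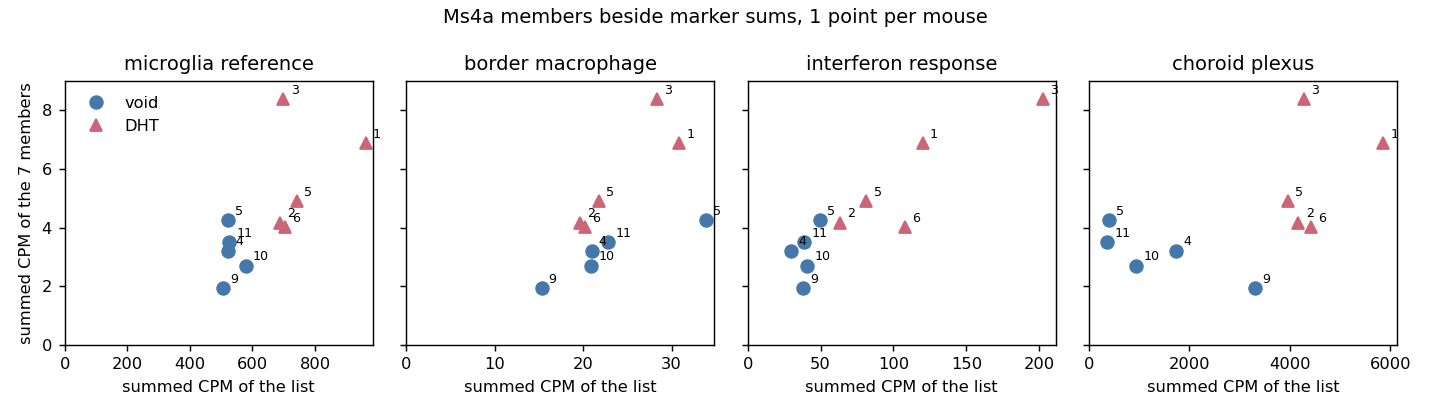
Summed level of the 7 members (y axis, CPM) against the summed level of 4 marker lists (x axes, CPM) in void-treated (circles) and DHT-treated mice (triangles), numbered by replicate. The groups are apart along the microglia, interferon-response and choroid plexus axes and overlap along the border macrophage axis, where void replicate 5 has the highest sum, 33.9 CPM.

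Of the 14837 tested genes with a mean of at least 1 CPM, those with the closest pattern within the groups were named for each member by the same correlation over 10 mice. Nearest to Ms4a6c were Pcdhb22, Fgl2 and Dis3, at 0.961, 0.957 and 0.939, and nearest to Ms4a6b were Slfn5, Pla2g4a and Plod2, at 0.965, 0.965 and 0.964. For Ms4a6d they were Derl2, Ctbs and Mipol1 at 0.947, 0.929 and 0.912, and for Ms4a7 Thsd1, Stard8 and Fam228b at 0.942, 0.926 and 0.918. None of these 12 was itself called, and their log2 fold changes ranged from -0.17 for Pcdhb22 to 0.70 for Fgl2. They are the highest of 14837 correlations over only 10 mice, where high values can arise by chance, and no link to the members was tested.

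The other Ms4a genes of the cluster were at or close to 0. Ms4a3, a gene of granulocyte and monocyte progenitors, and Ms4a12, Ms4a13, Ms4a18, Ms4a19 and Ms4a20 had no count in any mouse. Ms4a1, which encodes the B cell protein CD20, and Ms4a2, a chain of the IgE receptor of mast cells, had at most 1 count per mouse and 0 counts in all DHT-treated mice. Ms4a5, Ms4a8a and Ms4a10 had at most 2 counts in any mouse, Ms4a4d at most 4 and Ms4a14 at most 9. Ms4a15, an epithelial member, had 55 counts in void replicate 4 and at most 4 in any other mouse. Their relatives Tmem176a and Tmem176b, related membrane proteins of dendritic cells and other myeloid cells encoded outside the cluster, were far more abundant. Tmem176a was at 13.4 ± 1.31 CPM in void-treated and 19.2 ± 1.79 CPM in DHT-treated mice (SD, n = 5 per group), with no overlap, and its log2 fold change was 0.52 (SE 0.09, edgeR adjusted p = 0.00965). Tmem176b was at 24.5 ± 4.03 CPM in void-treated and 37.5 ± 4.57 CPM in DHT-treated mice (SD, n = 5 per group), also with no overlap, and its log2 fold change was 0.61 (SE 0.12, edgeR adjusted p = 0.0119). Both passed the adjusted p and stayed under the fold limit, and with no fold limit 5.22% of all genes tested were higher at that adjusted p.

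Along chromosome 19, 34 genes from Ms4a10 to Ms4a3 had a row in the table, and 5 of them were tested, the 4 members and AW112010, a non-coding transcript known to respond to interferon. AW112010 had a log2 fold change of 0.58 (SE 0.27, edgeR adjusted p = 0.301). Between Ms4a7 and Ms4a6d, the first and the last member, lay 9 other genes, and none had enough counts to be tested. Of these, Gm8369 had 31 counts in all void-treated and 58 in all DHT-treated mice. On the opposite strand, BE692007 overlaps Ms4a6c and had 2 counts with void and 10 with DHT, and Gm19261 overlaps Ms4a6b and had 0 and 1. Whether reads were counted by strand is not given in the sources used here, and these counts are small beside the 89 and 266 of Ms4a6c. Beyond the cluster, of the 5 nearest tested genes on each side, 2 rose and 8 were not called. The 2 were Slc15a3, a lysosomal transporter of myeloid cells, at a log2 fold change of 1.05 (adjusted p = 0.00670, edgeR), and Mpeg1, the macrophage perforin-2, at 1.44 (adjusted p = 0.00670, edgeR), and each was the farthest of its 5. The 8 genes nearer to the cluster, among them Ccdc86, Prpf19, Mrpl16 and Stx3, had log2 fold changes of at most 0.15 in size.

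**Figure D5:**
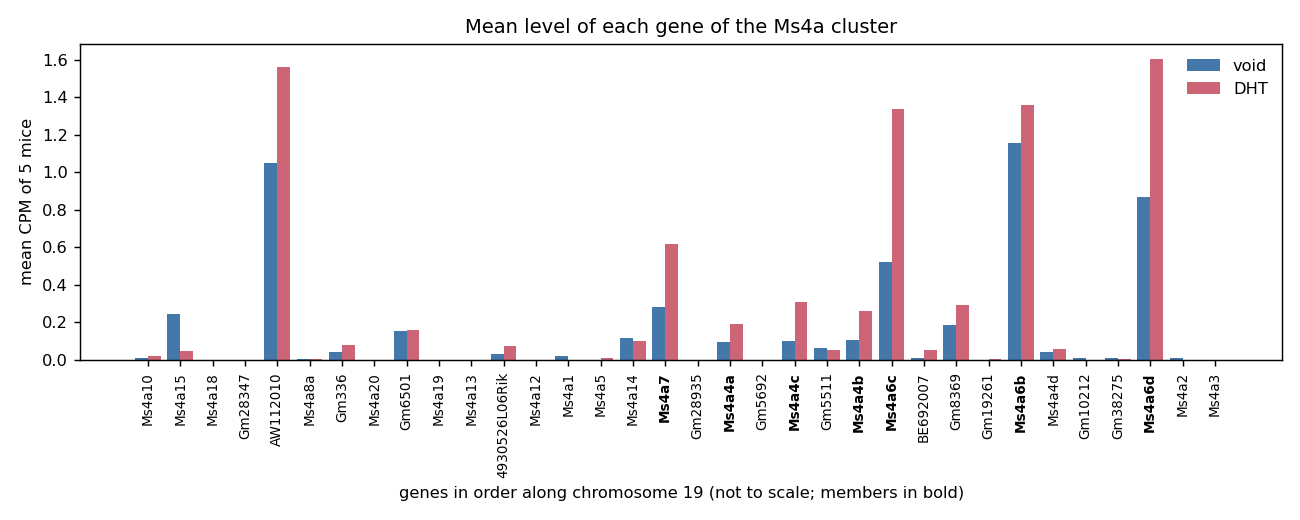
Mean level over 5 mice (y axis, CPM, from 0) with void and with DHT for the 34 genes of the cluster in their order along chromosome 19, not to scale, with members in bold. Levels above 0.5 CPM are confined to AW112010, Ms4a6b, Ms4a6c, Ms4a6d and, with DHT, Ms4a7.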

How the data were processed

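Hippocampal mRNA was sequenced from 10 mice, 5 with a void and 5 with a DHT implant. The authors trimmed and filtered reads with HTStream, aligned them with STAR 2.7.10b (version per the processing notes) and deposited the gene counts unnormalized. The study's methods name mm10 and the submitters' processing notes name mm39, so no coordinates of the table were used; the annotation release and the handling of multi-mapped reads are not given in the sources used here. Of 56884 identifiers, 51948 had a symbol in GENCODE M21. Groups follow the labels.

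For the comparison, edgeR 4.0.16 in R 4.3.3 was used (TMM, edgeR's expression filter by group, quasi-likelihood test, Benjamini-Hochberg adjustment over 17622 genes). A call needed an adjusted p under 0.05 with a log2 fold change beyond 1. The SE was obtained from the fold change and its F statistic. DESeq2 1.42.0 was the alternative. Log2 CPM used a prior count of 2. The scripts were tested on simulated data. Members, gene lists and motifs were chosen with earlier results of these data known. Beside members and Ms4a genes, the text names up to 4 called genes of each list with the largest fold change and, for each tested member, the 3 genes of closest pattern. Border, neighbouring and listed genes without a call were named after their values were seen, and the shared promoter runs and the alternatives for the Ms4a6b to Ms4a6c ratio were added then. The ratios between members, that of Ms4a6b to Ms4a6c included, were not among the planned tests. P-values measure the spread between the mice of each group.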

Additional observations from a re-analysis of the deposited data

Results flagged for a closer look

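Ms4a15 in void replicate 4 stood apart from its group. It had 55 counts there, or 1.16 CPM, and at most 4 counts in each other mouse. The gap to the next mouse was 0.948 of the range of the group, above Dixon's critical value of 0.71 for 5 values. Of 20 groups tested (each family gene with at least 50 counts in all, in void-treated and in DHT-treated mice), chance alone would mark about 1.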

How the results depend on the processing

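Ms4a6c stayed the one member called with DESeq2, with DESeq2 size factors or library size alone in edgeR, without the expression filter, with at least 10 counts in every mouse and with no fold limit, and its adjusted p was 0.00215 to 0.0292 in those with a fit of their own. With the choroid plexus covariate 0 members were called, and the share of all genes called in that fit was not computed. Ms4a6b, Ms4a6c and Ms4a7 moved up, from 0.25 to 0.98, from 1.36 to 1.94 and from 1.12 to 1.98. Ms4a6d moved down, from 0.87 to 0.77. Leaving out each mouse in turn gave 0 to 1 members called, and 0 to 1 relative to the microglia list. The share of all genes called in these fits was not computed. Relative to the microglia list the called member was Ms4a4c, tested in 5 of these fits. It entered them only through its DHT-treated mice, so its calls are no support. With no fold limit 1, Ms4a6c, was called relative to that list, where 2.66% of all genes were. Scaling on the myeloid list in place of the microglia list moved Ms4a6d from 0.34 to -0.22 and the median of all genes from -0.49 to -1.0, so most of its move is that of the scale, and neither value passed the test. The change in the Ms4a6c to Ms4a6b log2 ratio, 1.01, was 1.06 with a prior count of 0.5, 0.91 with 5 and 0.92 to 1.09 with each mouse left out, settings chosen after seeing the data. The cause of the other shifts was not tested. No paired analysis was possible, because the paper states that littermates were randomized to treatment but the labels give no litters. The replicate numbers are labels only and pair no mice. With 10 to 106 counts of Ms4a6c per mouse, and fewer of the Ms4a4 genes, counting error limits every value here.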
